A study of Mus musculus with 2 samples.

Results

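The cells described here were liver CD11b+ cells of mice with diet-induced steatohepatitis that carried Ccr2 transcripts but few or none of the transcripts that mark the other Ccr2+ states. They were selected on their own measured counts. A member had a Ccr2 count of 3 or more, at most 25% mitochondrial counts, no count for Cd209a or Cd5l, and a count for at most 1 gene in each of 4 lists (Vcan, Serpinb10, Tppp3, Chil3 and F13a1 of classical monocytes; Spn, Ace, Cd300e, Eno3 and S1pr5 of patrolling monocytes; Mmp12, F7, Gpnmb and Spp1 of lipid-associated macrophages; Tmem119, Olfml3 and Pf4). A member also had a count for at most 2 of the 6 immediate-early and cytokine genes Il1b, Thbs1, Nr4a2, Nr4a3, Fosb and Crem. Of 12071 cells from both mice on the diet, 1307 met the rule, against 15384 cells in the whole data set. They are called marker-poor Ccr2+ cells below.

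CCR2 is the receptor for the chemokine CCL2 and brings Ly6Chi monocytes from the bone marrow and blood into injured tissue. In the liver such monocytes lose Ly6c2 and Ccr2 over time and can become macrophages or cells with dendritic features, so cells with Ccr2 but without end-state markers can be on their way between states. Immediate-early genes such as Fos and Nr4a2 are switched on within minutes of a stimulus, and also when a tissue is taken apart, and their low level is often read as quiescence. EGR2 is a zinc-finger transcription factor of the early-growth-response family, held in check by the corepressors NAB1 and NAB2.

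The study measured single-cell RNA of CD45.2+ CD11b+ liver cells after CD90.2, B220, NK1.1 and SiglecF had been used to remove lymphoid cells and eosinophils. There was 1 mouse of each kind. An Egr2fl/fl mouse, whose floxed Egr2 alleles are intact, and a Lyz2Cre/+.Egr2fl/fl mouse, which loses Egr2 only in cells that have expressed Lyz2, were fed a high-fat diet that lacks choline and supplies defined amino acids (CDA-HFD) for 7 weeks. A further mouse of each genotype received normal diet (ND). All 4 mice carried both floxed alleles, and the Cre was present in the Lyz2Cre/+ mice alone. With 1 mouse per group no difference between mice can be tested, and every interval below is a 95% interval that covers counting error only. Levels are counts per 1000000 (CPM) of the summed counts of a group of cells, and cells of 1 mouse are not replicates.

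The marker-poor cells had a median of 13246 counts in the Egr2fl/fl mouse and 13379 in the Lyz2Cre/+.Egr2fl/fl mouse, beside 13168 and 13476 in all cells and 15098 and 14831 in all Ccr2+ cells of the same mice. Their median mitochondrial share was 2.25% and 2.21%. The median share of hashtag counts that came from the own tag was 93.9% and 94.7%, and 422 of 548 and 601 of 759 cells reached 90%.

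On CDA-HFD the rule took 548 of 5885 cells of the Egr2fl/fl mouse, or 9.31% (exact binomial interval 8.58 to 10.1), and 759 of 6186 cells of the Lyz2Cre/+.Egr2fl/fl mouse, or 12.3% (11.5 to 13.1). The difference was 2.96 percentage points (1.84 to 4.07). Among cells with 3 or more Ccr2 counts the marker-poor cells were 16.8% of 3260 and 20.7% of 3663, a difference of 3.91 points (2.05 to 5.76). Where no count was allowed for any gene of the 5 lists, the differences were 0.119 and 0.178 points and both intervals included 0. With every cell thinned to 5000 counts the shares of Ccr2+ cells were 33.2% and 38.0%. The share of all cells that had 3 or more Ccr2 counts was itself 55.4% and 59.2%. The same rule on ND gave the opposite order, with 182 of 1723 cells (10.6%) in the Egr2fl/fl mouse and 65 of 1590 (4.09%) in the Lyz2Cre/+.Egr2fl/fl mouse, a difference of -6.47 points (-8.28 to -4.69). Whether genotype or the individual mouse moved with these shares cannot be told apart.

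**Figure D1:**
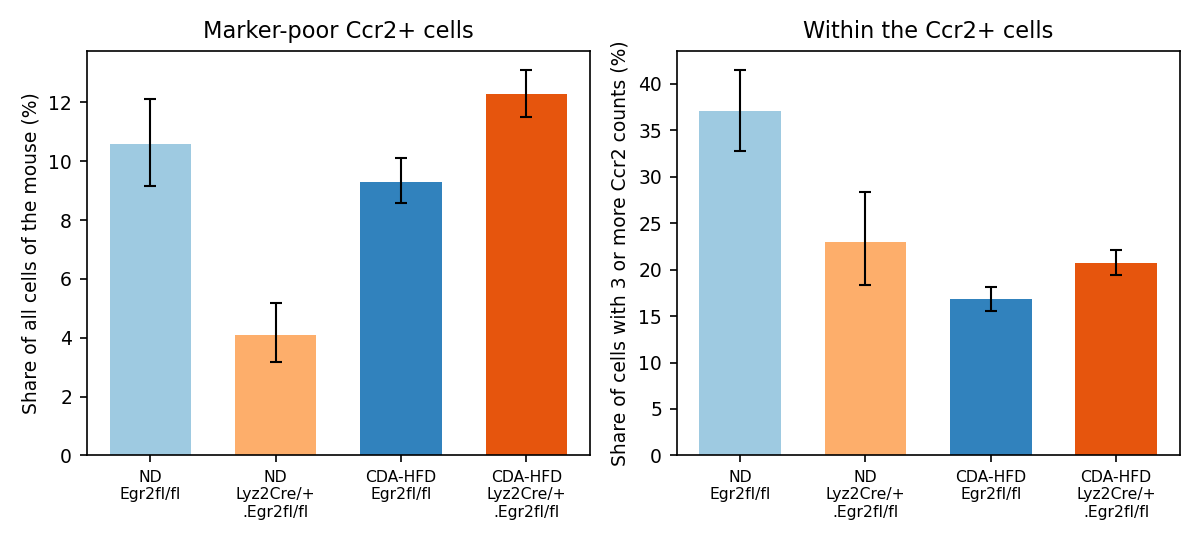
Share of marker-poor Ccr2+ cells (y axis, percent) among all cells (left) and among cells with 3 or more Ccr2 counts (right) in each of the 4 mice. Bars are 1 mouse each and the lines are exact binomial 95% intervals. The share is higher in the Lyz2Cre/+.Egr2fl/fl mouse on CDA-HFD (12.3% against 9.31%) and lower on ND (4.09% against 10.6%).

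The limits of the rule cut through continuous values. The median Ccr2 count of a member was 11.0 in the Egr2fl/fl mouse and 12.0 in the Lyz2Cre/+.Egr2fl/fl mouse. There were 47 and 55 members with exactly 3 Ccr2 counts, and 56 and 70 cells with 2 counts that met every other clause. Members with 2 of the immediate-early and cytokine genes numbered 239 and 296, and cells with 3 of them that met every other clause numbered 194 and 187. Members with 1 gene of the Vcan list numbered 249 and 344, and 213 and 286 cells stood just outside with 2 genes of it. Some genes had no low values above 0 in the deposited table. Among them were Cd5l, Mmp12, Plac8, Apoe, Lyz2, Cxcl2, Retnlg, S100a9, the C1q genes, H2-Aa, H2-Ab1, H2-Eb1 and Cd74. A 0 of these genes may therefore stand for a value under the lowest one kept.

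Depth entered the rule, because a cell with fewer counts shows fewer marker genes. In the Egr2fl/fl mouse the marker-poor share of Ccr2+ cells was 29.2% of 489 cells with under 10000 counts, 17.3% of 1927 cells between 10000 and 20000, and 8.53% of 844 cells with more. In the Lyz2Cre/+.Egr2fl/fl mouse the same shares were 35.2% of 546, 19.7% of 2320 and 13.9% of 797. At each depth the share was the higher one in the Lyz2Cre/+.Egr2fl/fl mouse. The intervals overlapped under 10000 counts (25.2 to 33.5 and 31.2 to 39.3) and between 10000 and 20000 (15.6 to 19.0 and 18.1 to 21.3). With more counts they did not overlap (6.73 to 10.6 and 11.6 to 16.5). Cells were also thinned to 5000 counts, which left out the 16.9% and 13.4% of cells with fewer. Then 13.2% and 19.0% of the cells that had failed the rule only through the Vcan list, and 24.5% and 26.0% of those that had failed it only through Tmem119, Olfml3 and Pf4, met it. Of the cells that met the rule when thinned, 56.5% and 58.5% also met it at full depth.

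**Figure D2:**
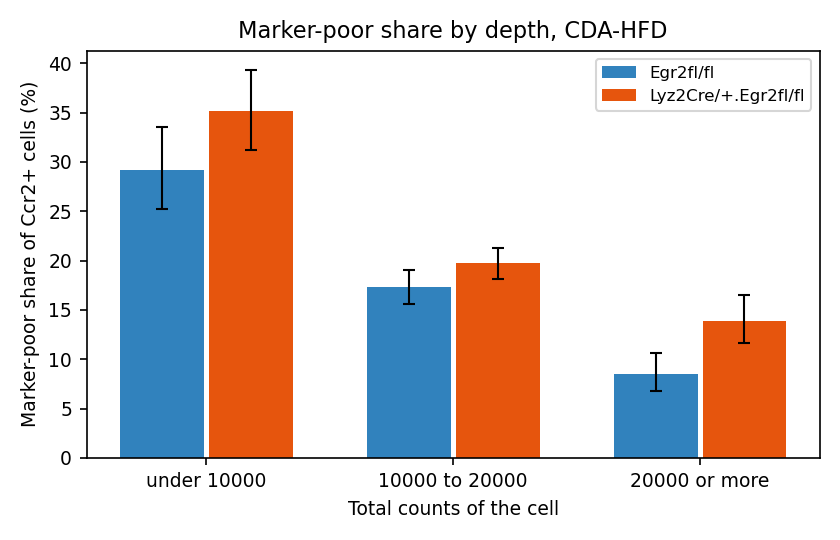
Share of Ccr2+ cells that were marker-poor (y axis, percent) by the total counts of the cell (x axis) in both CDA-HFD mice, with exact binomial 95% intervals. The share falls from 29.2% to 8.53% in the Egr2fl/fl mouse and from 35.2% to 13.9% in the Lyz2Cre/+.Egr2fl/fl mouse.

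None of the 4 genes proposed as markers beside Ccr2 peaked in these cells, although Slfn1 and Txnip were higher in them than in the immediate-early set described below. Slfn1, a Schlafen-family gene linked to quiescence of lymphocytes and monocytes, was at 52.2 and 79.4 CPM in the marker-poor cells of the Egr2fl/fl and Lyz2Cre/+.Egr2fl/fl mouse, under the 65.4 and 88.2 CPM of all cells. It was counted in 21.5% and 29.2% of them. Cells with counts for at least 3 of Retnlg, Cxcr2, Csf3r, Mmp9 and S100a9, called the neutrophil gate here, held 552 and 656 CPM of Slfn1, and the immediate-early set 32.5 and 58.1. Txnip, which codes for an arrestin-like brake on glucose uptake, was at 258 and 343 CPM against 233 and 280.2 in all cells, 889 and 1025 in the neutrophil gate, and 137 and 193 in the immediate-early set.

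Ms4a4c, a tetraspan-like gene of Ly6Chi monocytes, was at 329.5 and 413 CPM in the marker-poor cells. It was higher, at 579 and 657 CPM, in the cells that failed the rule only by having 2 or more genes of the Vcan list (the Vcan set, 471 and 533 cells). Plac8, another monocyte gene, was at 1975 and 2312 CPM in the marker-poor cells and at 5958 and 5966 CPM in the Vcan set. Both genes were therefore below the level of the Vcan set in both mice, which does not bear on quiescence. The marker-poor cells are described here by their rule, and whether they were a quiescent form was not tested. In cells of the neutrophil gate, which should lack Ms4a4c, it was counted in 7.91% and 11.6% of cells (median depth 4197 and 4199 counts), against 63.3% and 73.4% of marker-poor cells.

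**Figure D3:**
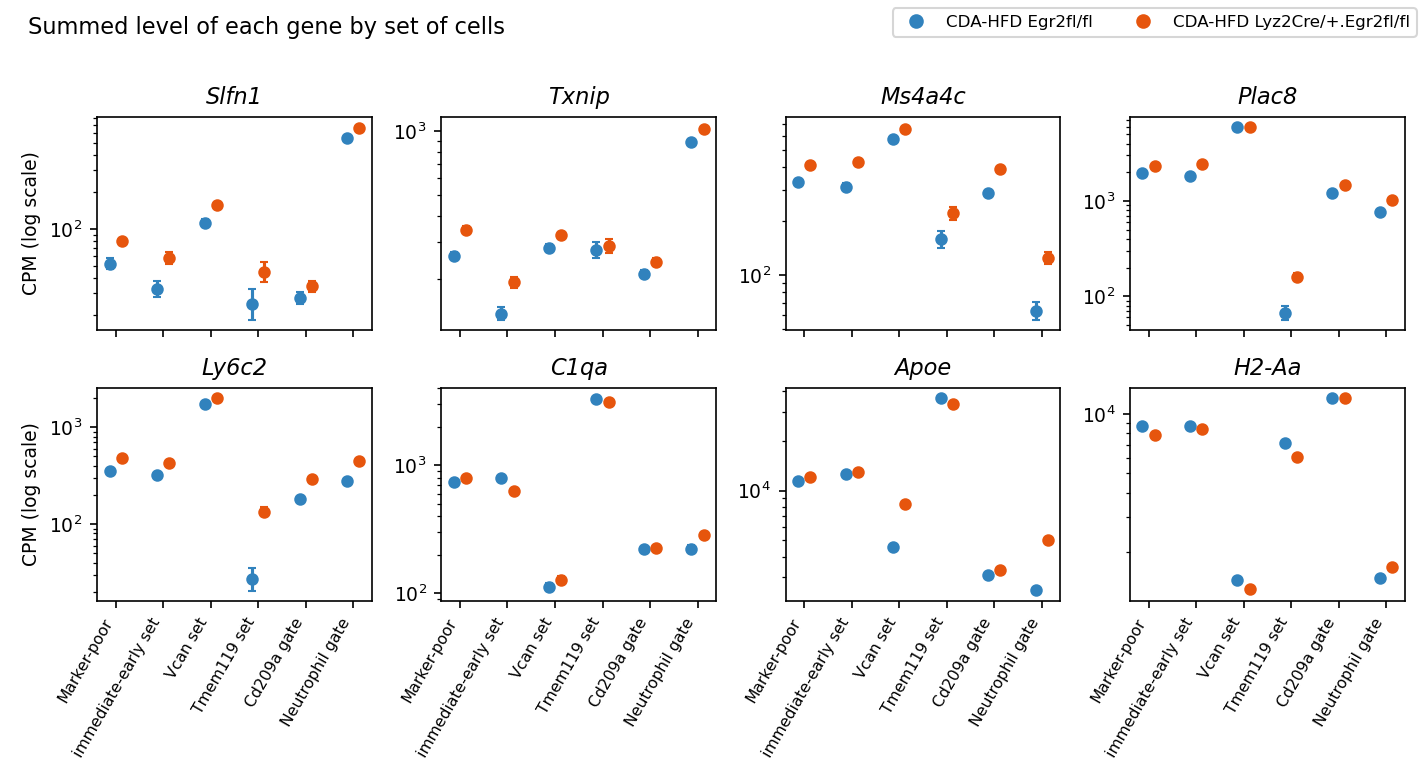
Summed level (y axis, CPM, log scale) of 8 genes in 6 sets of cells of the CDA-HFD mice, with exact Poisson 95% intervals, most of them smaller than the points. Slfn1 and Txnip peak in the neutrophil gate, Plac8 and Ly6c2 in the Vcan set, C1qa and Apoe in the Tmem119 set and H2-Aa in the Cd209a gate, with the marker-poor cells between the extremes for each gene.

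For Ly6c2, C1qa and Apoe the summed marker-poor cells lay between the Vcan set and cells with macrophage markers. Ly6c2, the surface antigen of inflammatory monocytes, was at 352 and 486 CPM, against 1742 and 1999 in the Vcan set and 27.0 and 134 in cells that failed only through Tmem119, Olfml3 and Pf4 (the Tmem119 set, 98 and 127 cells). C1qa, a complement subunit of tissue macrophages, was at 746 and 790.5 CPM, against 112 and 127 in the Vcan set and 3315 and 3124 in the Tmem119 set. Apoe, a lipid carrier made by macrophages, followed the same order with 11366 and 12005 CPM, against 4576 and 8280.4 and against 36171 and 33321. H2-Ab1, a chain of MHC class II, was at 8868 and 7763 CPM, above both the Vcan set (1465 and 1291) and the Tmem119 set (7306 and 5814). It was 13069 and 12640.1 in Ccr2+ cells with a Cd209a count and no Cd5l count (the Cd209a gate, 619 and 634 cells). The fractalkine receptor gene Cx3cr1 was at 441 and 452 CPM, close to the 458 and 526 of the Vcan set and under the 1018 and 929.8 of the Tmem119 set.

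The intermediate sums of C1qa and Ly6c2 were made of unlike cells. The tenth percentile and the median of C1qa were 0 CPM in both mice while the 90th percentile was 2596 and 2774 CPM. For Ly6c2 the median was 0 and the 90th percentile was 933 and 1695 CPM. Both genes were counted in the same cell in 6.02% and 9.09% of marker-poor cells, Ly6c2 alone in 29.0% and 30.7%, C1qa alone in 20.6% and 22.0%, and neither in 44.3% and 38.2%. The table keeps C1qa values from 7 upwards, so lower counts of it are not seen in these shares. Across the marker-poor cells of 1 mouse, Plac8 went with Ly6c2 (Spearman rho 0.403 and 0.421) and against C1qa (-0.366 and -0.418). These are descriptions over cells that share a library and differ in depth.

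Each cell was then set against the average profile of 9 sets taken from the other CDA-HFD mouse, with the genes of the rule left out. No set of Xcr1+ or Ccr7+ dendritic cells or of proliferating cells was among the 9. A cell of those kinds could only lie nearest another average. Only 15.3% (84 of 548) and 17.9% (136 of 759) of the marker-poor cells correlated best with the marker-poor average. The Cd209a gate was nearest for 27.7% and 21.1%, the Vcan set for 17.2% and 19.4%, the Tmem119 set for 14.8% and 22.8%, and the cells that failed only through Mmp12, F7, Gpnmb and Spp1 (the Mmp12 set) for 13.1% and 9.49%. The cells that failed only through the Spn list (the Spn set) were nearest for 4.20% and 5.67%, the immediate-early set described below for 2.74% and 1.05%, the neutrophil gate for 2.92% and 1.84% and a lymphocyte gate for 2.01% and 0.791%. By the same measure 86.6% and 79.0% of the Vcan set, 82.2% and 82.6% of the Cd209a gate and 77.6% and 83.5% of the Tmem119 set lay nearest their own average. For the immediate-early set it was 23.6% and 18.8%, and for the Spn set 27.8% and 25.4%, so a low share is not particular to the marker-poor cells. The matches were weak: the median best correlation of a marker-poor cell was 0.149 and 0.161, with a gap of 0.0441 and 0.0422 to the next one, beside best correlations of 0.203 and 0.206 in the Vcan set and 0.296 and 0.301 in the Cd209a gate. The nearest average is therefore a description of likeness and not a membership. Since each mouse was scored against the averages of the other, its shares are not compared with those of the other mouse.

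**Figure D4:**
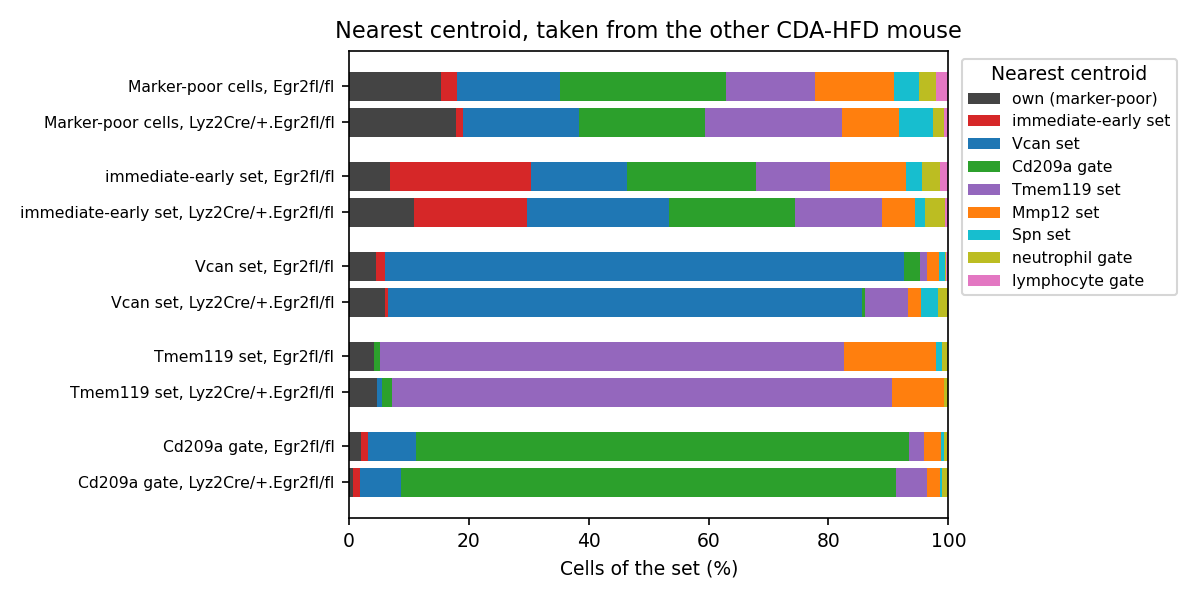
Share of cells (x axis, percent) of 5 sets by the average profile of the other CDA-HFD mouse that each cell resembled most (colours). Most cells of the Vcan set, Tmem119 set and Cd209a gate match their own average, while 15.3% and 17.9% of the marker-poor cells and 23.6% and 18.8% of the immediate-early set do.

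In the 84 and 136 cells nearest the marker-poor average the proposed markers were not higher as a group than in the marker-poor cells nearest the Vcan set. Slfn1 was at 107 and 122 CPM beside 102 and 148, and Ms4a4c at 569 and 641 beside 587 and 708. Txnip was at 295 and 410.0 CPM beside 326 and 355, and Plac8 at 2724 and 2943 beside 5887 and 6660.0. All 4 were higher than in the marker-poor cells nearest the Cd209a gate or the Tmem119 set, though Txnip only slightly so beside the latter. Txnip was at 199 and 279.5 CPM in those nearest the Cd209a gate. In those nearest the Tmem119 set it was at 271 and 375, with intervals that overlapped in both mice. Slfn1 stood at 30 and 18.7 CPM, Ms4a4c at 309.8 and 289.8 and Plac8 at 1442 and 1511 in those nearest the Cd209a gate. In those nearest the Tmem119 set the same genes were at 20.5 and 80.0, 137 and 312, and 132 and 269.8 CPM. In the cells nearest the marker-poor average H2-Aa was 9751 and 9839 CPM, beside 1322 and 749 in those nearest the Vcan set. Their Ly6c2 was 265 and 464 CPM beside 1661 and 1737. C1qa was 624 and 747 CPM in them and 2778 and 2169 in the marker-poor cells nearest the Tmem119 set. Flt3, the receptor of dendritic-cell growth factor, stood at 65 and 85.7 CPM in the marker-poor cells nearest the Cd209a gate and at 6.77 and 11.1 in those nearest their own average. All of these genes took part in the choice of the nearest profile, so the values describe that choice.

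A further set of cells met every clause except that they had counts for 3 or more of Il1b, Thbs1, Nr4a2, Nr4a3, Fosb and Crem (the immediate-early set, 365 and 341 cells). It made up 40% (36.8 to 43.2) of both groups together in the Egr2fl/fl mouse and 31.0% (28.3 to 33.8) in the Lyz2Cre/+.Egr2fl/fl mouse, a difference of -8.98 points (-13.2 to -4.71). On ND only 12 of 194 and 2 of 67 such cells were in it, or 6.19% and 2.99%. Among 8533 genes with at least 200 counts that the rule did not use, 9 (0.105%) were at least 2-fold higher in the marker-poor cells in both mice and 39 (0.457%) were at least 2-fold lower. Since 6 immediate-early and cytokine genes define the split, these counts describe the rule and test nothing.

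Among the genes lower in the marker-poor cells were those of acute activation. Il1b, which was in the rule, was at 1415 and 1056 CPM against 3693 and 4075. Cd14, the co-receptor for lipopolysaccharide, was at 309 and 326 CPM against 861 and 868 in the immediate-early set, a ratio of 0.359 (0.342 to 0.377) and 0.376 (0.359 to 0.393). The activation marker Cd83 was at 199.7 and 160.2 CPM against 559 and 499.9. Ratios between 0.209 and 0.376 in both mice were also seen for Grasp, Ifrd1, Ptgs2 (cyclooxygenase 2), Vegfa, Egr3, Nfil3, Got1, Ets2, Hilpda (a lipid-droplet protein induced by hypoxia) and Plaur (the urokinase receptor). Of the 34 measured genes of the immediate-early and activation list outside the rule, 32 were below 1 in each mouse, with medians of 0.598 and 0.543 beside 1.02 and 1.03 for all genes.

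The first-wave genes Fos and Jun differed less. Fos was at 1028 and 1053 CPM in the marker-poor cells against 1340.2 and 1611, with a count in 85.0% and 81.8% of them. Jun was at 622 and 505 CPM against 651 and 554. Nr4a1, an orphan nuclear receptor gene outside the rule, stood further apart, at 176 and 121 CPM against 420.3 and 413.

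Few genes stood higher in the marker-poor cells. Txnip had a ratio of 1.88 (1.73 to 2.05) and 1.78 (1.66 to 1.91). Ddit4, an inhibitor of mTOR signalling, was at 37.7 and 43.9 CPM in the marker-poor cells and at 20 and 17.9 in the immediate-early set. The linker histone H1f3 had ratios of 3.20 and 2.15 and Il16, a cytokine precursor, 2.11 and 2.05. Zfp217, Calhm2, Arl11, Blnk, 9930111J21Rik2, Atp13a1, B3gnt8 and the interferon-inducible Trim34a had ratios between 1.62 and 2.35, but the lower of both Blnk ratios was 0.919 after thinning. The quiescence list, made of Klf, Btg and Foxo genes and their targets, leaned to neither side: 12 genes were above 1 and 11 below in the Egr2fl/fl mouse (median 1.03), and 11 above and 12 below in the Lyz2Cre/+.Egr2fl/fl mouse (median 0.992). Of its 23 measured genes 2 and 5 were at least 2-fold lower and 0 and 2 at least 2-fold higher, the latter being Ddit4 and Il7r. No share of all genes past 2-fold in a single mouse stands beside these counts. Klf4 and Btg2 of the quiescence list were lower in the marker-poor cells. Klf4 was at 129.6 and 103 CPM against 316 and 309.9, and Btg2 at 454 and 363 CPM against 849 and 883.

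Against the Vcan set the marker-poor cells differed more. Of 8666 genes, 171 (1.97%) were at least 2-fold higher in both mice and 129 (1.49%) at least 2-fold lower. Since classical monocyte genes define the Vcan set, these counts and the list counts that follow describe the rule and test nothing. The list counts are per mouse, and no share of all genes past 2-fold in a single mouse stands beside them. Genes of antigen presentation were in the higher group. H2-Eb1 was at 7848 and 7248 CPM against 1059 and 899, a ratio of 7.41 and 8.07, and H2-Aa, H2-Ab1 and H2-Oa had ratios between 6.01 and 12.6. Values of H2-Aa, H2-Ab1 and H2-Eb1 start at 8, so lower ones are not seen in these ratios. Of 12 genes in the MHC class II list, 8 in the Egr2fl/fl mouse and 9 in the Lyz2Cre/+.Egr2fl/fl mouse were at least 2-fold higher, with medians of 4.54 and 4.35 beside 0.988 and 0.983 for all genes.

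Most macrophage and dendritic genes followed the same direction. Of 21 measured genes of the macrophage list 13 and 10 were at least 2-fold higher and 1 and 2 were below 1, with medians of 2.87 and 1.58. C1qa had ratios of 6.64 and 6.21 and C1qc 7.38 and 6.69. Values of both start at 7, so lower ones are not seen in these ratios. Cd72, a lectin-like coreceptor, had 21.9 and 7.81, and Hpgds, a prostaglandin D2 synthase, 6.57 and 7.96. The dendritic-cell adhesion gene Cadm1 went from 3.23 to 53.9 CPM and from 1.83 to 46.5, and the lectin receptor gene Klrd1 from 6.79 to 71.0 and from 4.65 to 69.5. Klra17 and the cyclin gene Ccnd1 had ratios between 7.63 and 12.2. Of the 9 measured genes of the dendritic list all were above 1 in both mice, with medians of 3.45 and 2.95.

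The lower group held most measured genes of the classical monocyte list. The fibronectin gene Fn1 went from 731 to 124 CPM and from 577 to 96.9. Ly6a2 had ratios of 0.0629 and 0.0416, Cd177 0.0711 and 0.140, Hp (haptoglobin) 0.143 and 0.180, and Mmp8, a collagenase, 0.119 and 0.131. Pi16, Ifitm6, Mgst1, Slpi (an antiprotease), Ccdc88c and Glipr2 lay between 0.0743 and 0.230. Of 20 measured genes of the classical monocyte list 16 and 15 were at least 2-fold lower and 2 and 1 at least 2-fold higher. The higher ones were the calprotectin genes S100a9, at 390 and 367 CPM against 41.0 and 120.4 (values from 22 upwards are kept), and, in the Egr2fl/fl mouse, S100a8, at 379 against 146. Of 10 measured genes of the neutrophil list, 4 and 2 were at least 2-fold higher and 2 and 2 lower, with medians of 1.60 and 0.739.

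Across diets the marker-poor cells of both ND mice differed in level from both CDA-HFD mice in several listed genes, chosen after their values were seen. The lipid receptor gene Trem2 was at 46.0 and 53.1 CPM on ND and 344 and 401 on CDA-HFD, and Apoe at 3263 and 5187 against 11366 and 12005. Fos was at 371 and 381 CPM on ND against 1028 and 1053, Jun at 187 and 194 against 622 and 505, and Cd14 at 80.0 and 64.6 against 309 and 326. Ly6c2 went the other way, from 837 and 707 CPM on ND to 352 and 486. Both ND values lay below both CDA-HFD values for each gene named, and above them for Ly6c2. The summed lymphocyte list stood at 2649 CPM in the marker-poor cells of the ND Egr2fl/fl mouse, 565 in the ND Lyz2Cre/+.Egr2fl/fl mouse, and 244 and 235 on CDA-HFD. Of its 16 genes 2, 4, 0 and 1 were at 0 in the same order. In the lymphocyte gate of the CDA-HFD mice it was 19299.5 and 12839.9 CPM. The part of lymphocyte RNA in the ND values was not tested. Of the dendritic list, Xcr1 was at 155 and 189 CPM on ND against 16.1 and 36.2. Clec9a was at 108 and 138 CPM against 18.8 and 24.6, while Clec4b1 and Tnip3 went the other way. Whether the rule took the same mix of cells on both diets was not tested.

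The genotype was checked on Egr2 and on Lyz2, the gene whose locus carries the Cre. Egr2 was at 29.6 CPM in the marker-poor cells of the Egr2fl/fl mouse and at 13.5 in those of the Lyz2Cre/+.Egr2fl/fl mouse, a ratio of 0.456 (0.368 to 0.564). It was counted in 13.7% and 6.59% of them, and in 10.7% and 2.08% of the neutrophil gate. In the other Ccr2+ cells the ratio was 0.353 (0.326 to 0.381). On ND, Egr2 was at 22.7 and 12.4 CPM. A 3' count need not fall when an upstream exon is deleted, so the remaining counts do not show how many cells kept the gene. Lyz2, of which one allele is interrupted by the Cre, was at 11157 and 5720.4 CPM (ratio 0.513, interval 0.507 to 0.518). The corepressor genes Nab1 and Nab2 were at 28.4 and 27.5 CPM and at 47.9 and 42.4 CPM.

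Of 7183 genes with at least 200 counts in the marker-poor cells of both CDA-HFD mice together, 174 (2.42%) were at least 1.5-fold higher in the Lyz2Cre/+.Egr2fl/fl mouse and 109 (1.52%) at least 1.5-fold lower. The median ratio of all genes was 1.02. The mix of unlike cells within the marker-poor cells was not matched between the mice. The ratio in the other Ccr2+ cells of the same mice is given beside each gene, because a difference between the mice as a whole appears in both.

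The heat shock genes Hspa1b and Hspa1a had the lowest ratios among the genes named by size. Hspa1a, the inducible HSP70, went from 1047 to 359.9 CPM (ratio 0.344, interval 0.331 to 0.357), and its neighbouring copy Hspa1b from 365 to 125. Both are near-identical, and counts may be split between them. Hsp90aa1 went from 631 to 290.1 CPM, and the HSP40 gene Dnajb1 and the co-chaperone gene Bag3 had ratios of 0.583 and 0.476. In all, 5 of 11 measured heat shock genes were past 1.5-fold lower and none higher, with a median of 0.768. The other Ccr2+ cells showed ratios of 0.281 for Hspa1a and 0.474 for Hsp90aa1. On ND the order was the opposite for Hspa1a, at 50.7 CPM in the Egr2fl/fl mouse and 178 in the Lyz2Cre/+.Egr2fl/fl mouse, and for Hspa1b and Dnajb1 (ratios of 4.34 and 1.58). Hspa8, Hspe1 and Hsp90ab1 were lower in the Lyz2Cre/+.Egr2fl/fl mouse on ND, with ratios of 0.846, 0.719 and 0.906. What moved with these values between mice was not tested.

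The starts of most listed heat shock genes hold the core of the heat shock element, shown here for the pair with the lowest ratios. The core searched was GAANNTTC, which reads the same on both strands, in the 300 bases from 250 before to 50 after each RefSeq gene start of GRCm38.p6. It was in 7.86% of all 32851 such windows and in those of 8 of the 9 genes of the list that had one. Capitals mark the core in 30 bases, 5′ to 3′ on the minus strand that both genes use. The windows lie at chr17:34972242-34972271 for Hspa1a and chr17:34959324-34959353 for Hspa1b, with the core starting 104 bases before the gene start in each.
Hspa1a: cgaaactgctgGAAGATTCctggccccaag
Hspa1b: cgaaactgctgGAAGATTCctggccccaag
The stretches were identical, so these bases do not tell the copies apart. A match is a description of the sequence and not a site shown to be bound. Genes with the core were not all past 1.5-fold between the mice: Hspe1 had a ratio of 1.03, Hspd1 of 0.996 and Dnaja1 of 0.885 (0.813 to 0.963).

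Some immediate-early genes beyond the rule were lower too. Gadd45b, a growth-arrest gene, went from 203 to 79.3 CPM (ratio 0.391, interval 0.359 to 0.425) beside 0.615 in the other Ccr2+ cells. Gdf15, a stress cytokine, went from 72.6 to 30 CPM with 0.437 in the other cells, and Bhlhe40, a transcription factor, from 84.1 to 39.9 with 0.695. The chemokine gene Cxcl2 had a ratio of 0.565 (0.531 to 0.601) in the marker-poor cells and 0.929 in the others, and Egr1 0.588 (0.526 to 0.656) and 0.916. Of 31 measured genes of the immediate-early and activation list outside the rule, Egr2 included, 5 were past 1.5-fold lower, none past 1.5-fold higher and 28 below 1, with a median of 0.829. Fos, Ccl3 and Nlrp3 were the 3 above 1, at 1.02, 1.04 and 1.27. Egr3, under the 200-count minimum with 50 and 142 counts, went the other way (ratio 2.02, interval 1.45 to 2.85). Tgm2, Fabp7 and Ifitm1 had ratios of 0.517, 0.574 and 0.447, and of these Ifitm1 was not lower in the other Ccr2+ cells, at 1.11 (1.04 to 1.19).

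Interferon-stimulated genes split. Of 46 measured, 36 were above 1 with a median of 1.2, and 5 were past 1.5-fold higher and 3 lower. The higher ones were Irf7 (106 to 168 CPM), the interferon regulatory factor that amplifies type I interferon, Ifit3, Ifit3b, Oasl1 and Slfn1 (ratios of 1.5, 2.13, 1.55 and 1.52). The lower ones were the interferon gamma targets Cxcl9 (64.6 to 30.7 CPM), Gbp2 (61.9 to 37.1) and Irf1 (95.7 to 63.1). The direction was the same in the other Ccr2+ cells for each of the 8 genes, at 1.36 for Irf7 and 0.700 for Gbp2. Cxcl9, Gbp2 and Irf1 were lower in the Lyz2Cre/+.Egr2fl/fl mouse on ND as well, with ratios of 0.483, 0.548 and 0.631 and far higher levels (Cxcl9 at 764 and 369 CPM). On ND the ratios of Ifit3 and Ifit3b were 0.669 (0.414 to 1.04) and 0.432 (0.150 to 1.03), with intervals that included 1. Irf7, Oasl1 and Slfn1 stood at 1.09, 1.3 and 1.16 on ND, and their intervals included 1 too.

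The interferon-stimulated response element was sought in the same windows on either strand as TTTC, any 2 bases and TTTC. It was in 3.44% of all windows and in those of 20 of the 38 interferon-stimulated genes that had one. Of the 8 genes above, Ifit3, Ifit3b and Gbp2 held it, and a stretch of 30 bases of each is shown because the genes moved in opposite directions. Capitals mark the element on the plus strand, at chr19:34583363-34583392 for Ifit3, chr19:34607759-34607788 for Ifit3b and chr3:142620594-142620623 for Gbp2.
Ifit3: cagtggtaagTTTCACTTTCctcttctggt
Ifit3b: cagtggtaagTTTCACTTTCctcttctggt
Gbp2: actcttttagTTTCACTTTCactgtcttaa
These copies of the element were written alike in the genes that were higher and in the gene that was lower. Ifit3 and Ifit3b each held another copy with other free bases, which is not shown. Ifit3 and Ifit3b are close copies whose counts are uncertain between them.

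On the higher side Fkbp5, a glucocorticoid-induced partner of HSP90, had the largest ratio of the named genes, from 11.8 to 38.7 CPM (3.29, 2.61 to 4.17), and it was 2.87 in the other Ccr2+ cells. Of 9 measured genes of the glucocorticoid-induced list only Fkbp5 was past 1.5-fold, 4 were below 1 and the median was 1.05. Fkbp4, a related HSP90 partner, went from 27.5 to 50.6 CPM (1.84 beside 1.25). The macrophage list had 2 of 21 measured genes past 1.5-fold higher, none lower, 4 below 1 and a median of 1.06. Ms4a7, a tetraspan-like gene of macrophages, went from 110.0 to 182 CPM (ratio 1.66, interval 1.53 to 1.80) beside 1.30, and the phagocytic receptor gene Mertk from 16.1 to 26.7 CPM (ratio 1.66, interval 1.34 to 2.07) beside 0.910. The lysosomal enzyme gene Naaa had a ratio of 1.64 beside 1.2. The fatty acid carrier Fabp4 stood at 1.71, Fnbp1l at 1.64, Osbpl11 at 1.68, the endosomal J-protein gene Dnajc13 at 1.66 and Serpinb6a at 2.12. The ratio of Dnajc13 was not on the same side of 1 in the other Ccr2+ cells.

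Of 9 measured proliferation genes, 2 were past 1.5-fold higher in the Lyz2Cre/+.Egr2fl/fl mouse and 8 were above 1, with a median of 1.23. Mki67 went from 9.68 to 21.8 CPM (ratio 2.25, interval 1.72 to 2.96) beside 1.16 in the other Ccr2+ cells, and Stmn1 from 23.9 to 55.4 (ratio 2.32, interval 1.96 to 2.75) beside 1.10. The histone genes Hist1h2ap and H1f4, members of families whose copies can share counts, had ratios of 2.14 and 1.72. Top2a, Ube2c and Pcna stood at 1.09, 1.06 and 0.911. On ND the ratio was 0.754 (0.549 to 1.02) for Mki67, 1.04 for Stmn1, 0.577 for Top2a and 0.733 for Hist1h2ap.

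**Figure D5:**
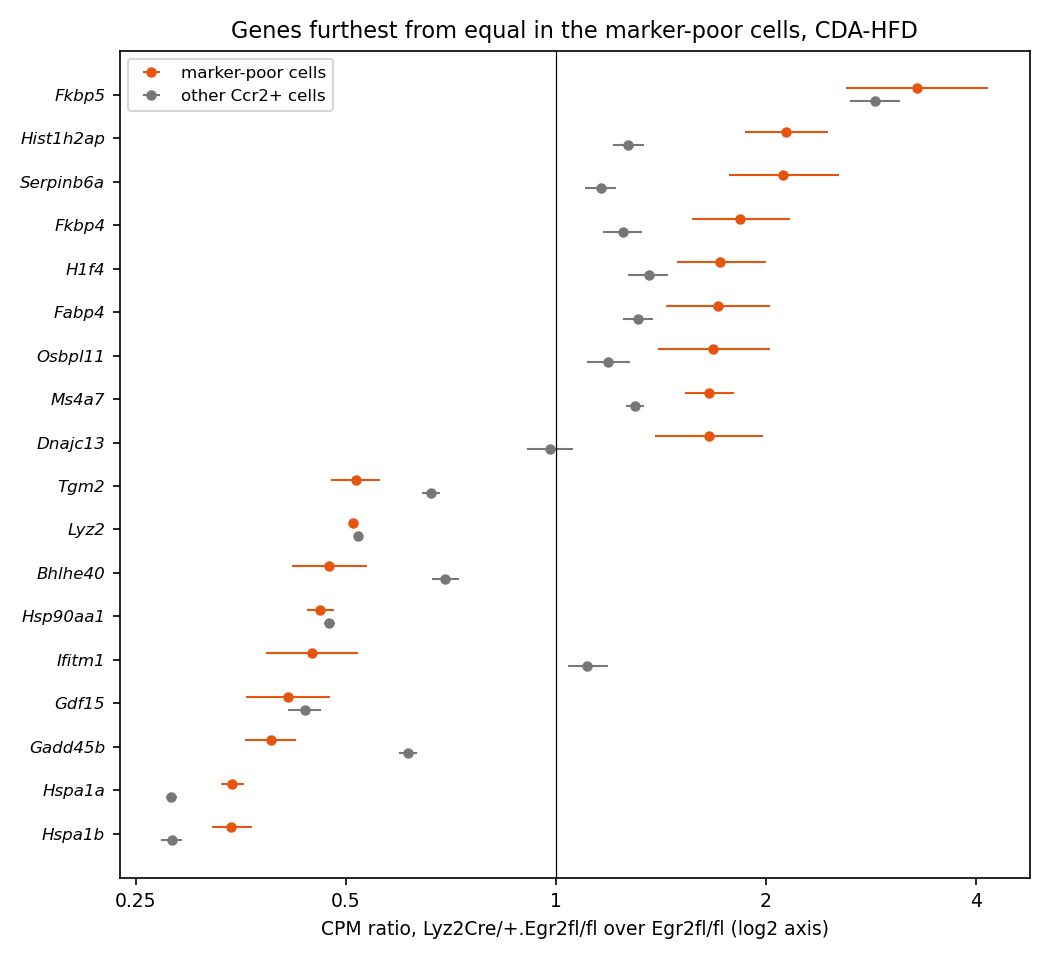
CPM ratio of Lyz2Cre/+.Egr2fl/fl over Egr2fl/fl on CDA-HFD (x axis, log2 scale) for the 9 highest and 9 lowest genes among those named by size in the marker-poor cells, with exact binomial 95% intervals. Orange points are the marker-poor cells and grey points the other Ccr2+ cells of the same mice. Most pairs lie on the same side of 1, while Ifitm1 and Dnajc13 do not.

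In other lists few genes passed 1.5-fold. None of 21 measured chemokine receptor and adhesion genes and none of 20 growth factor and cytokine receptor genes was past 1.5-fold, with medians of 1.02 and 1.05. None of the 12 MHC class II genes was past 1.5-fold, although 10 were below 1 and the median was 0.874. The dendritic list had 2 of 9 measured genes past 1.5-fold higher, Xcr1 and Clec10a, none lower and a median of 1.28. Of 4 measured genes of the Egr2 and Nab list, Egr1 and Egr2 were past 1.5-fold lower, with a median of 0.737, while Egr3, left out for its low counts, stood at 2.02. The Ms4a and Schlafen families leaned higher, with 13 of 14 genes above 1 and a median of 1.28, and Ms4a7 and Slfn1 were past 1.5-fold. The ratio of Slfn1 was 1.52 in the marker-poor cells and 1.55 in the other Ccr2+ cells. The neutrophil list summed to 987 and 989 CPM in the marker-poor cells, against 89429 and 96718 in the neutrophil gate, and 1 or 2 of its 14 genes were at 0 in them. In both mice together 29 marker-poor cells also met that gate and 11 met the lymphocyte gate. Retnlg, a neutrophil gene, had a ratio of 2.63 between genotypes that was 0.994 when cells with 2 Ccr2 counts were let in. The dendritic-cell receptor gene Xcr1 had a ratio of 2.25 and one of 0.990 after thinning, and the lymphocyte gene Nkg7 had 0.597 and, without cells of either gate, 7.07.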

How the data were processed

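The single-cell count table was deposited by the authors with 16786 barcodes, of which 15394 carried 1 of 4 mouse hashtags and 1392 (8.29%) were named doublets and left out. Doublets within a mouse were not removed. The protocol names a barcode and a molecular identifier in read 1, but whether the counts are reads or unique molecules is not given in the sources used here. The submitters' processing notes list Seurat 4.1.1, R 4.2.1 and GRCm38. Values of 25 genes start at 5 to 22 instead of 1. The label text spells the A954 hashtag differently in one place, and 7 hashtag columns belonged to no mouse here and entered no comparison.

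Cells with at most 25% mitochondrial counts were kept (15384). Counts were summed over cells of a mouse and set and given as CPM. Intervals are exact Poisson, exact binomial (Clopper-Pearson and, for CPM ratios, conditional) or Newcombe intervals. There was 1 mouse per group, so no test was made, and a gene with at least 200 counts was called past 1.5-fold between genotypes or past 2-fold in both mice between sets. Genes named by size were the 12 with the most extreme ratios in each direction among those with at least 500 counts and a count in at least 10% of cells, and genes of the 24 lists past the fold were named as well. Some genes that this rule names are not reported here. Nearest profiles used Pearson correlation over 10819 genes. Promoter windows came from RefSeq, and 2 of 10 motifs looked at are shown. Members and lists were chosen with earlier results of these data known. Analyses used Python 3.11.15, NumPy 2.4.6, SciPy 1.17.1 and pandas 2.3.3, with edgeR 4.0.16 in R 4.3.3 for TMM scaling as an alternative, and were tested on simulated data.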

Additional observations from a re-analysis of the deposited data

Results flagged for a closer look

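The share of marker-poor cells among all cells differed by 2.96 points between the CDA-HFD mice and by -6.47 points between the ND mice, in opposite directions. Ratios of Lyz2Cre/+.Egr2fl/fl over Egr2fl/fl in the marker-poor cells were also past 1.5-fold in opposite directions on the diets, with both intervals excluding 1, for 8 listed or named genes outside the rule with at least 200 counts in the CDA-HFD marker-poor cells. No minimum was set for ND, where Fabp7 had 12 and 21 counts. Mmp9, Gzmb, Pi16, Clec1b, Zbtb46, Trbc2 and Tppp3, the last a gene of the rule, met the fold limit with fewer CDA-HFD counts. Other genes lay on opposite sides of 1 without meeting that limit, such as Plac8 at 1.17 and 0.691. On CDA-HFD and ND, respectively, the ratio was 0.344 and 3.51 for Hspa1a, 0.343 and 4.34 for Hspa1b, and 0.583 and 1.58 for Dnajb1, which code for heat shock proteins. It was 1.61 and 0.624 for the lectin gene Clec10a, 0.650 and 2.85 for the neutrophil chemokine receptor gene Cxcr2, and 1.72 and 0.631 for the linker histone gene H1f4. Ifitm1 stood at 0.447 and 2.14, and the fatty acid-binding protein gene Fabp7 at 0.574 and 4.92. With 1 mouse per group these differences between diets were not tested.

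Hashtags assigned to no mouse of this series were counted in marker-poor cells. Hashtag A955 had 82 counts in 57 of the 759 marker-poor cells of the Lyz2Cre/+.Egr2fl/fl mouse on CDA-HFD and 4 in those of the Egr2fl/fl mouse on ND, and hashtag A962 had 4 in the former. The source of these counts was not tested.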

How the results depend on the processing

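No paired analysis was possible because each genotype and diet was 1 mouse. Of the values that answer a comparison, 182 recomputed values stayed the same and 43 moved, and of those for single named genes 955 stayed, 140 moved and 5 reversed. The marker-poor share of all cells in the Egr2fl/fl and Lyz2Cre/+.Egr2fl/fl CDA-HFD mice became 10.3% and 13.4% with a Ccr2 minimum of 2, 7.83% and 10.6% with 5, and 13.5% and 16.6% after thinning to 5000 counts. With Ccr2 at 200 CPM the Egr2fl/fl mouse stood at 10.3%. Among Ccr2+ cells the shares became 18.8% and 22.2% at 200 CPM and 33.2% and 38.0% after thinning. The ND Lyz2Cre/+.Egr2fl/fl share became 5.28% at 200 CPM. Where no gene of the 5 lists was allowed a count, the shares fell to 0.204% and 0.323% of all cells and 0.368% and 0.546% of Ccr2+ cells, 0.638% and 0 on ND, and the differences became 0.119, 0.178 and -0.638 points. The intervals of both CDA-HFD differences then included 0. That left 12 and 20 cells, too few for profiles.

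Counts of genes past the fold depended on depth and on the minimum count. Higher and lower between genotypes, there were 49 and 43 after thinning, 736 and 456 with at least 50 counts, and 38 and 30 with at least 500. Against the immediate-early set, 4 were higher after thinning, 19 at 200 CPM, 4 with an own-hashtag share of at least 90%, 68 with at least 50 counts and 2 with at least 500, and 81 were lower with at least 50. Against the Vcan set 83, 449 and 91 were higher after thinning and with at least 50 and 500 counts, and 68 and 202 were lower after thinning and with at least 50. The Egr2 ratio was 0.585 with an own-hashtag share of at least 90%. As a mean over cells, the median ratio was 0.898 for the classical monocyte list and 0.644 for the neutrophil list. By Spearman correlation 7.48% and 15.2% of marker-poor cells lay nearest their own average. Reversed ratios were Retnlg at 0.994 with a Ccr2 minimum of 2 and 0.751 at 200 CPM, Xcr1 at 0.990 and Blnk at 0.919 after thinning, and Nkg7 at 7.07 without cells of the neutrophil or lymphocyte gate, an alternative chosen after seeing the data. Beyond thinning, the minimum count and the stricter rule, which change the cells or genes by construction, the cause was not tested.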
